A study of Mus musculus with 12 samples.

Results

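The TEAD and YAP pathway genes were 10 genes selected by name: the transcription factor genes Tead1, Tead2, Tead3 and Tead4, the co-activator genes Yap1 and Wwtr1, and the target genes Ctgf, Cyr61, Ankrd1 and Amotl2. They made up 10 of the 52661 genes of the deposited expression table and 213 of the 401633 events of the deposited splicing table. Tead1 was chosen for an intron that was retained after Puf60 knockdown, so its values in comparisons that hold knockdown libraries are given as a description without a test. The question for the other genes was whether targets of YAP moved as well.

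The cells were N2A, a line derived from a mouse neuroblastoma, and a pair of stable derivatives was used. Both lines were N2A Flp-In rtTA3 cells with an integrated, doxycycline-inducible, siRNA-resistant Puf60 cDNA with a 3xFlag tag, so every group carried a transgene. The cDNA held exon 5 of Puf60 in the pEx5 line and lacked it in the mEx5 line. Induction libraries received the Puf60 siRNA at 15 nM and doxycycline at 2 µg/ml for 24 h, knockdown libraries the Puf60 siRNA alone, and control libraries a non-targeting siRNA at 15 nM. All were harvested at 48 h, and each of the 6 groups held 2 libraries, A and B. Doxycycline was never given together with the control siRNA, so effects of the drug and of the cDNA cannot be told apart. Puf60 is an RNA-binding protein that helps to recognise the 3′ ends of introns.

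TEAD proteins bind DNA but need a partner to activate transcription. The usual partners are the related co-activators YAP, encoded by Yap1, and TAZ, encoded by Wwtr1, which the Hippo kinases MST and LATS hold out of the nucleus by phosphorylation. Ctgf and Cyr61 encode secreted matricellular proteins, Ankrd1 a nuclear and sarcomeric ankyrin-repeat protein, and Amotl2 a scaffold of the angiomotin family that itself binds and restrains YAP. These 4 genes are standard readouts of YAP and TAZ activity.

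The libraries held between 22908930 and 41494994 exon-exon junction reads, and gene levels below are junction reads in each library scaled to its total (CPM). Junction reads of Puf60, which count the endogenous RNA and the cDNA together, stood at 608 and 622 CPM in pEx5 induction, 57.5 and 63.5 CPM in pEx5 knockdown, and 317 and 291 CPM in pEx5 control. In the mEx5 line Puf60 stood at 616 and 570 CPM in induction, 74.4 and 71.0 CPM in knockdown, and 299 and 301 CPM in control. Of 13 markers of noradrenergic neuroblastoma cells, 12 averaged at least 20 junction reads. Of 10 mesenchymal markers 2 did so, Pdgfra and S100a4, and Col3a1, Prrx1 and Thy1 had no read in any library. None of 5 macrophage markers and 2 of 4 epithelial markers reached that level. Nothing in the labels says that libraries A and B came from separate cultures, so each p-value reflects only how far these samples spread. In bulk RNA, fewer cells of a type and less RNA per cell cannot be told apart.

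In these cells the pathway was represented mainly by Tead1 and Wwtr1. By the deposited group values, which are per length (RPKM) and have no spread over libraries, Tead1 lay between 20.76 and 25.25 RPKM over the 6 groups. Wwtr1 followed at 0.73 to 4.8 RPKM, Amotl2 at 0.35 to 1.01 RPKM and Cyr61 at 0.21 to 0.85 RPKM. This order held for the highest group value of each gene; Tead1 stood above every other gene in all groups, while the ranges of Wwtr1, Amotl2 and Cyr61 overlapped. Tead2 ranged from 0 to 0.73 RPKM, Tead3 from 0.16 to 0.34 RPKM, Ankrd1 from 0.02 to 0.17 RPKM and Yap1 from 0.02 to 0.06 RPKM. Tead4 was listed at 0 in 5 groups and at 0.01 RPKM in mEx5 knockdown, and Ctgf was listed at 0 in all 6.

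**Figure D1:**
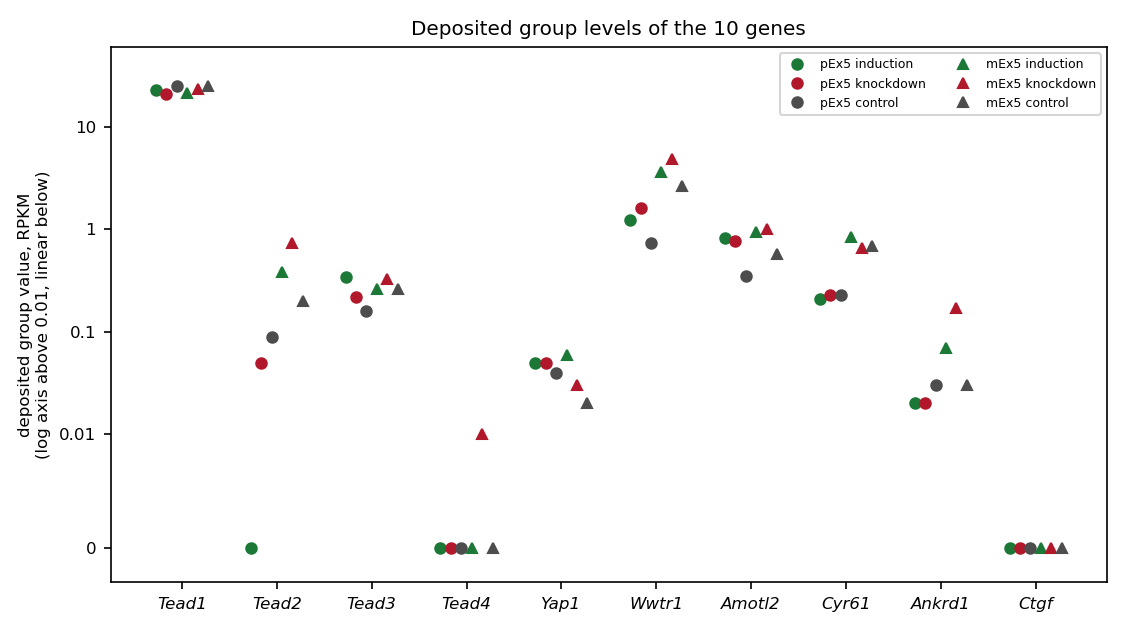
Deposited group values (RPKM, log axis above 0.01 and linear below) of the 10 genes, with pEx5 groups as circles and mEx5 groups as triangles; each point is a single value per group with the libraries combined. Tead1 lies between 20.76 and 25.25 RPKM in every group, whereas Yap1 does not pass 0.06 RPKM and Ctgf is at 0.

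Junction reads per library set which genes could be tested, and they did not follow the deposited group values throughout: Tead3 had enough reads and Tead2 did not, although Tead2 had the higher group maximum in RPKM. Of the 10 genes, 5 averaged at least 20 junction reads per library, the minimum for a test. They were Tead1 (1250 reads on average), Wwtr1 (215), Amotl2 (51.2), Tead3 (29.7) and Cyr61 (27.9). Ankrd1 averaged 4.58 reads, Tead2 had 15 reads in all 12 libraries together, Tead4 had 3, Yap1 had 1 and Ctgf had 0. A count of 0 allows up to 3 reads, which is 0.0726 to 0.126 CPM depending on the library, and covers counting error only. At this depth Ctgf was not detected, and the reads of Yap1 and Tead4 came from 1 library each. A change of Yap1, Ctgf or Tead4 could not be tested by junction reads.

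**Figure D2:**
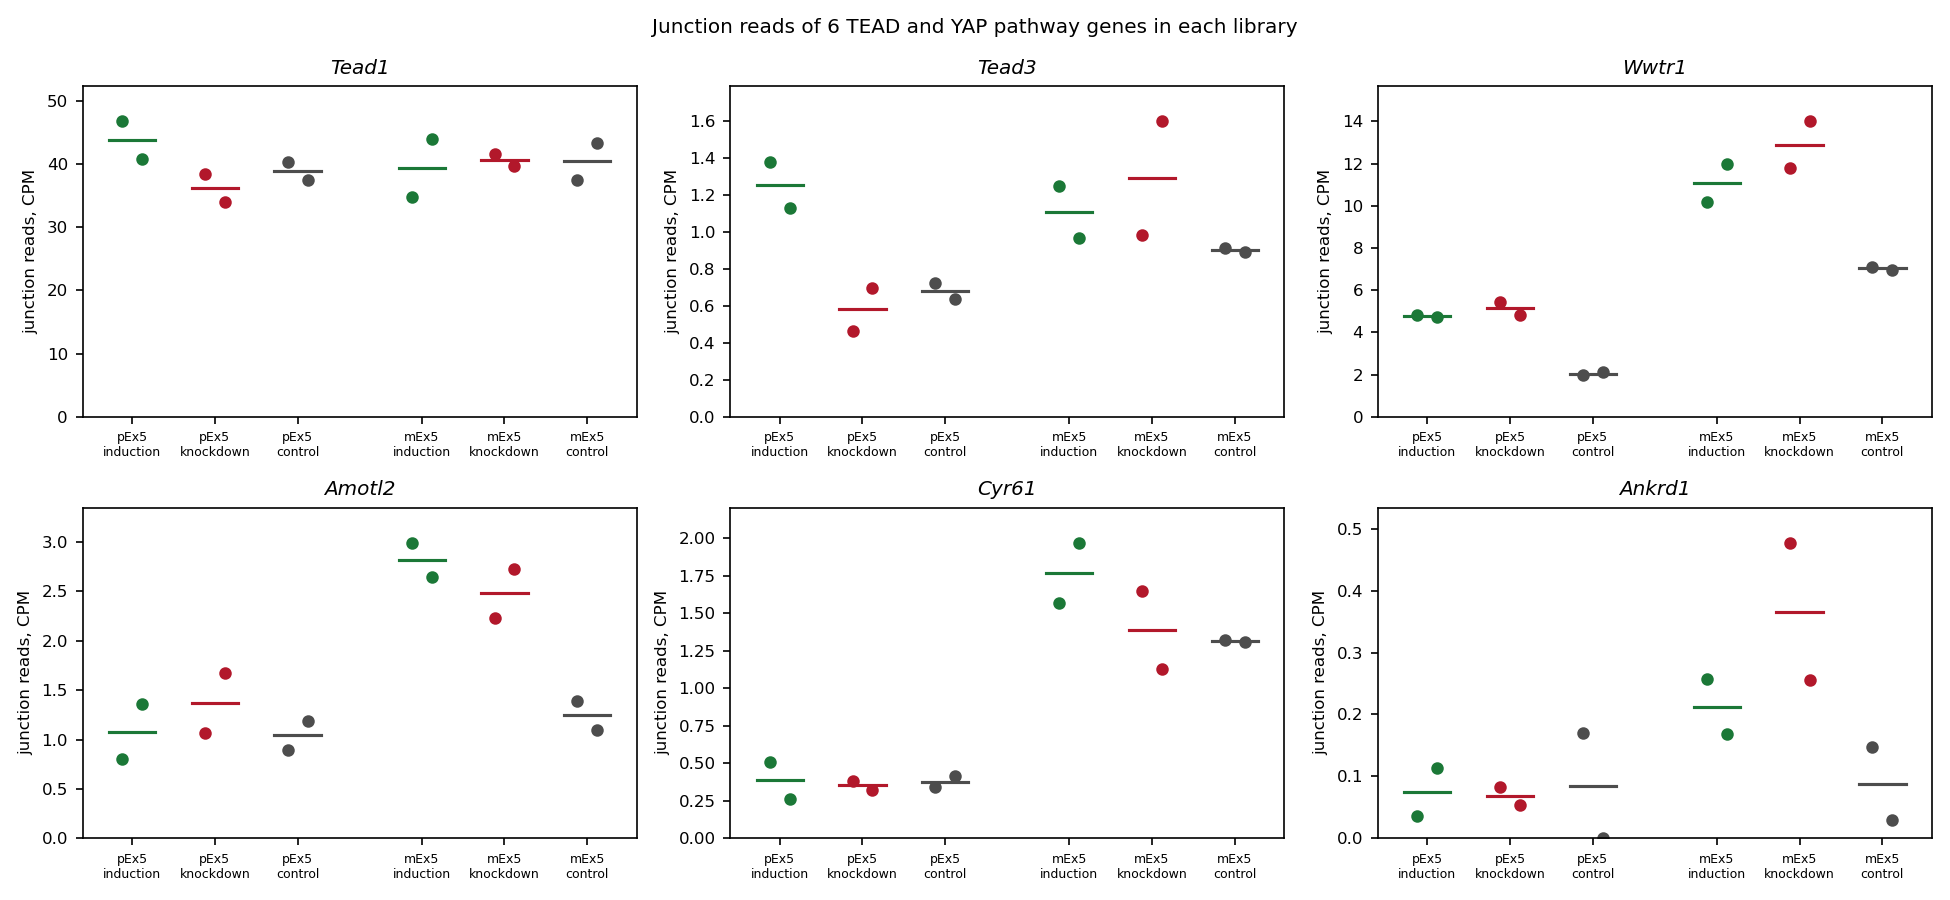
Junction reads in CPM (vertical axes, each from 0) of 6 genes in each library, by line and condition; points are libraries A and B and the horizontal bars are their means. Tead1 is nearly level across groups, Wwtr1 is lowest in the control libraries of each line, and Cyr61 is higher in every mEx5 library than in any pEx5 library.

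Tead1, the main TEAD gene of these cells, had 34.0 to 46.7 CPM over all libraries, and a different splicing pattern on knockdown. Tead1 had 46.7 and 40.7 CPM in pEx5 induction, 38.4 and 34.0 CPM in pEx5 knockdown, and 40.3 and 37.5 CPM in pEx5 control. In the mEx5 line it had 34.8 and 43.9 CPM in induction, 41.6 and 39.6 CPM in knockdown, and 37.5 and 43.3 CPM in control. Knockdown and control libraries overlapped in both lines. The log2 fold change of Tead1 on knockdown over both lines was -0.05 with a standard error of 0.0729, a description without a test. In the authors' deposited table the log2 fold change was -0.31 in the pEx5 line and -0.17 in the mEx5 line. Induction libraries did not differ from control libraries beyond their spread (log2 fold change 0.06 ± 0.0729 SE, limma adjusted p = 0.556), and pEx5 control did not differ from mEx5 control in Tead1 (-0.05 ± 0.103 SE, limma adjusted p = 0.766). Between the knockdown groups the authors' deposited table gave Tead1 a log2 fold change of -0.16, pEx5 against mEx5, a description without a test. That table did not call Tead1 between the control groups or between the induction groups (FDR 0.886 and 0.445).

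The Tead1 intron that prompted the selection is 2407 nt long and lies on chromosome 7 at 119982995-119985401 in the deposited coordinates, whose build is not given in the sources used here. It ends at a 63-nt alternative exon, which is followed by an 89-nt intron, a second 63-nt exon and, further on, a 12-nt microexon. A run of 8 consecutive exon and intron lengths from that intron on matched 2 of the 15 annotated Tead1 transcripts in GENCODE M21, which placed these exons in the mm10 genome on the plus strand. The first exon is at chr7:112841888-112841950, the second at chr7:112842040-112842102 and the microexon at chr7:112856053-112856064. The annotation has the first exon in 4 transcripts, the second in 7 and the microexon in 6. The sequences below are shown because the first exon and the introns on either side of it had the Tead1 events that the authors' deposited table marked as significant. As Tead1 was chosen for the retained intron, these marks are a description and no separate support. Exon bases are in capitals and intron bases in lower case: the last 40 bases of the retained intron with the first exon, then the complete 89-nt intron with the second exon, then the microexon. They were read from transcripts ENSMUST00000210510.1, which is annotated as a retained intron and spans this stretch, and ENSMUST00000059768.16.
first exon, chr7:112841848-112841950: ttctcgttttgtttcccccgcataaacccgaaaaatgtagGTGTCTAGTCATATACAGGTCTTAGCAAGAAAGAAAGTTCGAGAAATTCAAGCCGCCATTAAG
second exon, chr7:112841951-112842102: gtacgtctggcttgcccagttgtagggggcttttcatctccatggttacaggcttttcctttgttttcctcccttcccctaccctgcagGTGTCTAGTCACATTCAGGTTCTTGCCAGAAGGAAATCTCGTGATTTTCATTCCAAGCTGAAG
microexon, chr7:112856053-112856064: GTAACAAGCATG

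Set base by base, the first and second exon were identical at 44 of 63 positions. The last 40 intron bases before the first exon held 24 pyrimidines, of which 13 were T, and their longest unbroken pyrimidine run was 8 bases. The last 40 bases before the second exon held 32 pyrimidines, of which 16 were T, with a longest run of 17 bases. Both intron ends close with ag. These counts describe the letters of the reference, and binding by Puf60 was not measured.

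On knockdown the intron before the first exon was retained in every library by its deposited PSI, the percentage of reads that keep a sequence. Its PSI was 7.0% and 5.2% in pEx5 induction, 100% and 58.6% in pEx5 knockdown, and 1.9% and 7.9% in pEx5 control. In the mEx5 line it was 13.6% and 2.0% in induction, 41.4% and 51.2% in knockdown, and 4.3% and 11.9% in control. The 4 knockdown libraries stood above all others, and induction and control libraries overlapped. Over both lines the PSI differed by 56.3 points between knockdown and control and by -55.8 points between induction and knockdown. These percentages rest on 11 to 53.1 reads per library, and the exact binomial 95% intervals of the knockdown libraries (counting error only) reach down to 16.3% and those of the control libraries up to 30.4%.

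The reads behind the Tead1 PSI were few, and both of its parts differed. Over the 4 induction libraries 16 reads crossed a boundary of this intron and 75 joined the exons on its sides. In the 4 knockdown libraries 48 crossed a boundary and 11 joined the exons, against 12 and 55 in the 4 control libraries. Per library, boundary reads numbered 7 and 4 in pEx5 induction, 11 and 18 in pEx5 knockdown, and 1 and 3 in pEx5 control. The counts in the mEx5 line were 4 and 1 in induction, 9 and 10 in knockdown, and 2 and 6 in control. The knockdown counts did not overlap those of control or induction in either line.

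The joining reads count only Tead1 transcripts that include the first 63-nt exon, which is a minority of them. Measured instead against junction reads of the intron just before, 50 to 116 per library, the mean of both boundary counts made up 5.34% and 3.45% in pEx5 induction, 6.83% and 9.68% in pEx5 knockdown, and 0.429% and 1.75% in pEx5 control. By that measure the shares were 2.56% and 0.99% in mEx5 induction, 4.76% and 7.46% in mEx5 knockdown, and 1.72% and 3.61% in mEx5 control. Knockdown libraries were again the highest of each line, and pEx5 induction lay between knockdown and control. The difference between knockdown and control was then 5.3 points over both lines, compared with 56.3 points by the deposited PSI; this denominator was chosen after the values were seen. The direction was shared and the size was not.

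Inclusion of the first 63-nt exon of Tead1 had far more reads, 68 to 180 per library, and was lower on knockdown. Its PSI was 30.4% and 38.3% in pEx5 induction, 2.8% and 6.0% in pEx5 knockdown, and 12.9% and 12.5% in pEx5 control. The mEx5 line had 20.8% and 23.1% in induction, 5.5% and 5.7% in knockdown, and 22.8% and 13.3% in control. All 4 knockdown libraries lay below all control libraries, and the pEx5 induction libraries lay above every control library. Exact binomial 95% intervals of single libraries reached up to 14.4% in knockdown and down to 7.56% in control. Over both lines the PSI of the exon differed by -10.4 points between knockdown and control and by 23.2 points between induction and knockdown. Induction exceeded control by 21.6 points in the pEx5 line and by 3.9 points in the mEx5 line, where the libraries overlapped; whether the lines differ in this was not tested.

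**Figure D3:**
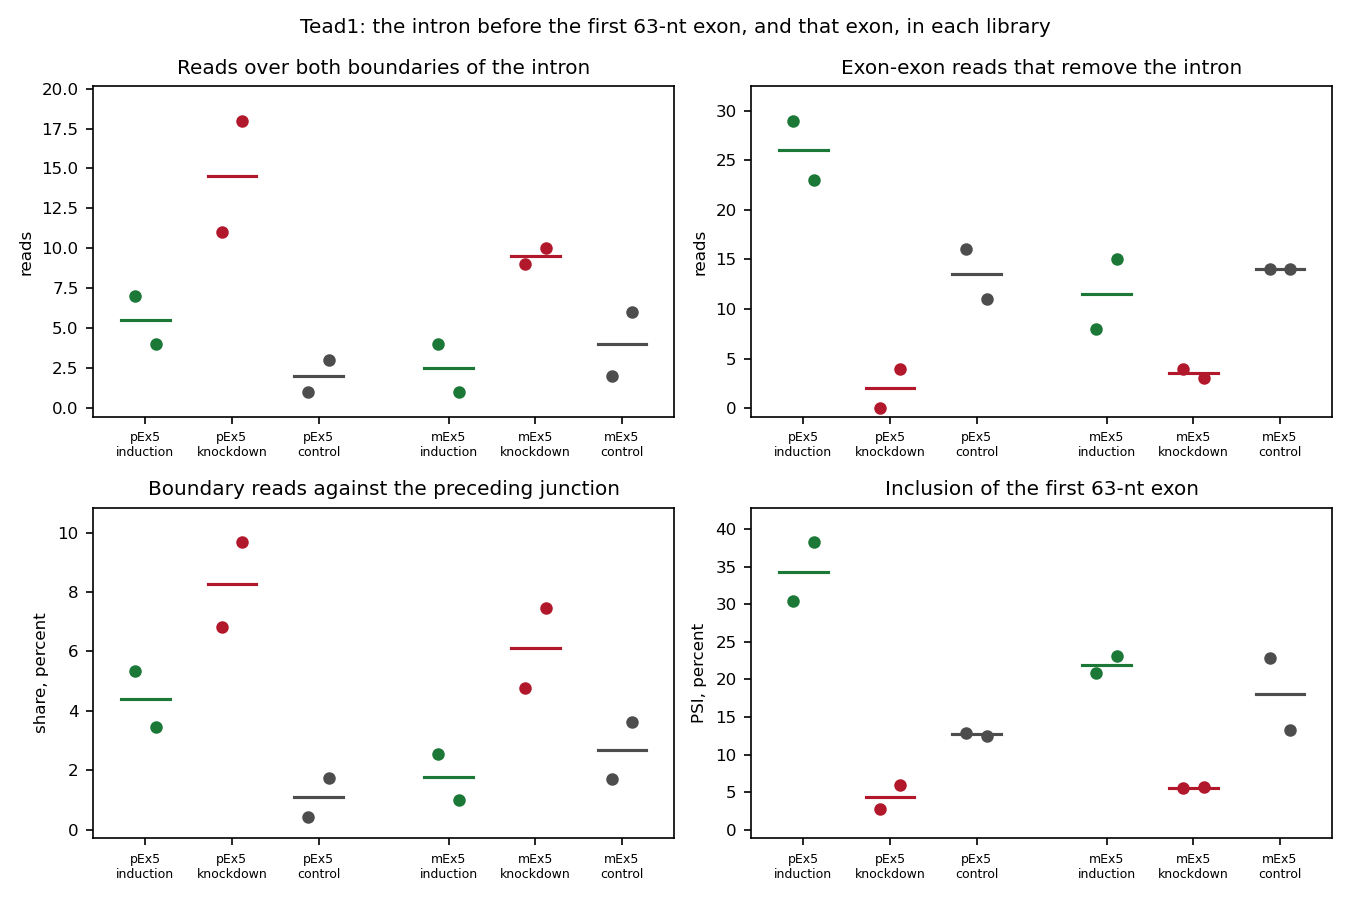
Tead1 in each library: reads over both boundaries of the intron, exon-exon reads that remove it, the mean boundary count as a percentage of itself plus the junction reads of the preceding intron, and the PSI (percent) of the first 63-nt exon. Points are libraries A and B and bars their means; knockdown libraries have the most boundary reads (9 to 18) and the lowest exon PSI (2.8% to 6.0%).

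On knockdown the second 63-nt exon and the microexon of Tead1 differed less. The second 63-nt exon had a mean PSI of 83.0% in pEx5 induction, 95.3% in pEx5 knockdown and 93.2% in pEx5 control, and 85.1% in mEx5 induction, 93.4% in mEx5 knockdown and 87.2% in mEx5 control. Its difference on knockdown was 4.2 points over both lines, and that between induction and knockdown was -10.3 points. The 12-nt microexon stayed between 93.2% and 99.4% in all libraries. The 89-nt intron, between both 63-nt exons, had a higher PSI on knockdown. Its PSI was 28.8% and 16.7% in pEx5 induction, 50% and 33.3% in pEx5 knockdown, and 13.7% and 16% in pEx5 control. In the mEx5 line it was 29.4% and 40.7% in induction, 60% and 52.9% in knockdown, and 6.2% and 25.0% in control. Within each line both knockdown libraries lay above the induction and control libraries, and every induction library lay above the control libraries of its line. The authors' deposited table marked this intron as significant for knockdown against control in the mEx5 line and in no other comparison. This mark too is given as a description. Its reads were few, 8 to 38 per library: 43 boundary and 60 joining reads were counted in the 4 induction libraries, 35 and 17 in the knockdown libraries, and 21 and 64 in the control libraries. The other 10 Tead1 introns with at least 10 reads in every library had a PSI of 0% to 6.7% throughout.

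The authors' deposited table marked events of no gene in the group other than Tead1 as significant in any of its 7 comparisons. For Tead1 it marked 1 event for knockdown against control and 2 for induction against knockdown in the pEx5 line. In the mEx5 line it marked 3 and 2, and between the lines 0. How many of all events the authors' rule marked was not counted, so these marks have no background share beside them. Tead1 was chosen for its retained intron, so they are given as a description. Of the 213 events of the 10 genes, 28 had at least 10 reads in every library, 22 in Tead1 and 6 in Wwtr1, and 21 of these entered the test across 167824 events, of which 1.33% were called on knockdown and 0.444% on induction against knockdown. Only 2 tested events lay outside Tead1, both introns of Wwtr1, and neither was called, which does not show that they did not differ. The larger of these differences, in intron MmuINT0176525, was -5.4 points on knockdown (limma adjusted p = 0.15, unadjusted p = 0.0143) and 5.1 points between induction and knockdown (limma adjusted p = 0.093, unadjusted p = 0.00209). In Amotl2, Cyr61, Tead3 and the other genes of the group no event had 10 reads in every library.

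The level of Tead1 over the 12 libraries was most like that of C330019G07Rik, Cbl and Zmiz1, with Pearson correlations of 0.876, 0.844 and 0.813 in log2 CPM of junction reads. These values describe libraries that share groups, and Tead1 itself varied little, with a log2 standard deviation of 0.134.

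Tead3, the second TEAD gene with enough reads, did not pass the test. It had 1.38 and 1.13 CPM in pEx5 induction, 0.466 and 0.699 CPM in pEx5 knockdown, and 0.726 and 0.637 CPM in pEx5 control. Its mEx5 values were 1.25 and 0.966 CPM in induction, 0.986 and 1.6 CPM in knockdown, and 0.917 and 0.894 CPM in control. Knockdown and control overlapped in the pEx5 line and did not in the mEx5 line. The log2 fold change of Tead3 was 0.11 ± 0.235 SE on knockdown (limma adjusted p = 0.715) and 0.54 ± 0.235 SE for induction against control (limma adjusted p = 0.0752). Tead2 had no junction read in any pEx5 library and 1 to 8 in the mEx5 libraries, and the 3 junction reads of Tead4 all came from 1 pEx5 knockdown library. In the authors' deposited table Tead2 was called lower in pEx5 than in mEx5 induction (FDR 0.018), being listed at 0 in pEx5 induction and at 0.38 RPKM in mEx5 induction.

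Among the co-activators, Wwtr1 was higher on knockdown in both lines. Wwtr1 had 4.81 and 4.73 CPM in pEx5 induction, 5.43 and 4.84 CPM in pEx5 knockdown, and 1.96 and 2.13 CPM in pEx5 control. The mEx5 line held Wwtr1 at 10.2 and 12 CPM in induction, 11.8 and 14.0 CPM in knockdown, and 7.12 and 6.94 CPM in control. Knockdown and induction libraries lay above the control libraries of their line without overlap, and overlapped each other in the mEx5 line only. Wwtr1 rose 2.11-fold on knockdown over both lines (log2 fold change 1.08 ± 0.103 SE, limma adjusted p = 4.53e-08), with 2.46-fold in the pEx5 line (limma adjusted p = 8.68e-07) and 1.82-fold in the mEx5 line (limma adjusted p = 0.000118). The effects in the lines differed by 0.44 ± 0.205 SE on the log2 scale, which did not pass the limma test (adjusted p = 0.908).

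Wwtr1 was also higher on induction than in control, a comparison that shares its control libraries with that of knockdown. It was 1.9-fold higher (log2 fold change 0.92 ± 0.103 SE, limma adjusted p = 1.09e-06). Against knockdown the log2 fold change was -0.16 ± 0.103 SE by junction reads (limma adjusted p = 0.245). The authors' deposited table called Wwtr1 lower on induction than on knockdown, with log2 fold changes of -0.38 in the pEx5 line (FDR 0.00448) and -0.36 in the mEx5 line (FDR 0.000744). The authors' deposited table also had it higher on knockdown, at 1.19 in the pEx5 line (FDR 5.84e-24) and 0.86 in the mEx5 line (FDR 6.5e-19). Yap1, the other co-activator, had its single junction read in an mEx5 knockdown library, and its FDR in the authors' deposited table was 0.795 on knockdown in the pEx5 line and 0.74 in the mEx5 line.

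Of the target genes, Amotl2 was higher on knockdown, Cyr61 did not pass the test, Ankrd1 had too few reads and Ctgf was not detected. Amotl2 had 0.801 and 1.36 CPM in pEx5 induction, 1.07 and 1.67 CPM in pEx5 knockdown, and 0.896 and 1.19 CPM in pEx5 control. Amotl2 in the mEx5 line had 2.99 and 2.65 CPM in induction, 2.23 and 2.73 CPM in knockdown, and 1.39 and 1.1 CPM in control. The groups overlapped in the pEx5 line, whereas in the mEx5 line induction and knockdown lay above control. Amotl2 rose 1.57-fold on knockdown over both lines (log2 fold change 0.65 ± 0.21 SE, limma adjusted p = 0.0134). It passed within the mEx5 line (0.96 ± 0.297 SE, limma adjusted p = 0.0165, but 0.119 without mEx5 control B and 0.108 without mEx5 knockdown B) and not within the pEx5 line (0.35 ± 0.297 SE, limma adjusted p = 0.373), and the difference between the lines was not past the limma threshold (-0.6 ± 0.42 SE, adjusted p = 0.943).

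The call of Amotl2 on knockdown depended on single libraries. Its limma adjusted p was 0.0612 without pEx5 control A, 0.085 without pEx5 knockdown B, 0.0529 without mEx5 control B and 0.0507 without mEx5 knockdown B, with a range of 0.00716 to 0.085 over 18 alternatives and of 0.5 to 0.81 for its log2 fold change. Against control, Amotl2 was also higher on induction (log2 fold change 0.58 ± 0.21 SE, limma adjusted p = 0.0356). That call was lost without pEx5 control A (0.129), pEx5 induction B (0.177), mEx5 induction A (0.0907), mEx5 control B (0.114) or mEx5 induction B (0.0566). The difference of Amotl2 between induction and knockdown was -0.07 ± 0.21 SE (limma adjusted p = 0.812). In the authors' deposited table Amotl2 was higher on knockdown in the pEx5 line (log2 fold change 0.76, FDR 0.000864) and in the mEx5 line (0.78, FDR 0.000407).

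Cyr61 had 0.51 and 0.265 CPM in pEx5 induction, 0.384 and 0.323 CPM in pEx5 knockdown, and 0.339 and 0.415 CPM in pEx5 control. Cyr61 in the mEx5 line had 1.57 and 1.97 CPM in induction, 1.65 and 1.13 CPM in knockdown, and 1.32 and 1.31 CPM in control. Knockdown and control overlapped in both lines, and its log2 fold change on knockdown was -0.01 ± 0.257 SE (limma adjusted p = 0.969). With 7 to 52 reads per library its precision was limited. Ankrd1 had 1 and 3 junction reads in pEx5 induction, 3 and 2 in pEx5 knockdown, and 7 and 0 in pEx5 control. Its mEx5 counts were 8 and 4 in induction, 15 and 7 in knockdown, and 4 and 1 in control. The authors' deposited table called Ankrd1 higher on knockdown in the mEx5 line (log2 fold change 2.24, FDR 0.0419) and not in the pEx5 line (-0.14, FDR 1).

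Counted together, 2 of the 4 tested genes other than Tead1 were higher on knockdown over both lines and none was lower, where 27.0% of 10363 genes were called higher and 24.8% lower. Within the pEx5 line 1 of 4 was higher (19.8% of all genes) and within the mEx5 line 2 of 4 (17.9%). For induction against control 2 of 5 were higher, beside 19.0% of all genes. For induction against knockdown 0 of 4 were called by limma, and 0 had an unadjusted p under 0.05, beside 37.7% of all genes called in either direction; the authors' deposited table called Wwtr1 alone, lower in each line, beside 8.64% of genes lower in pEx5 and 9.26% in mEx5. The count on knockdown was 1 when any 1 of the 4 libraries named for Amotl2 was left out. Wwtr1 and Amotl2, 2 of the 7 genes tested, were called higher in each line by the authors' deposited table, beside 10.1% of the 18600 genes it tested.

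The lines themselves differed in these genes before any knockdown. Wwtr1 was lower in pEx5 than in mEx5 control (log2 fold change -1.75 ± 0.145 SE, 0.297-fold, limma adjusted p = 2.71e-08), and so was Cyr61 (-1.65 ± 0.364 SE, 0.318-fold, limma adjusted p = 0.00206). These were 2 of 5 tested, where 13.8% of all genes were called lower. Amotl2 was not called between the control groups by junction reads (-0.25 ± 0.297 SE, limma adjusted p = 0.59), while the authors' deposited table gave -0.53 with an FDR of 0.0471. By the authors' deposited table the line difference of Wwtr1 was -1.91 in control, -1.58 in knockdown and -1.6 in induction, and that of Cyr61 -1.55, -1.52 and -2.0. The 10 mesenchymal markers summed to 18.4 to 18.6 CPM in pEx5 induction, 18.3 to 18.9 CPM in pEx5 knockdown and 15.1 to 15.5 CPM in pEx5 control. In the mEx5 line they summed to 19.9 to 25.8 CPM in induction, 30.2 to 31.4 CPM in knockdown and 20.5 to 21.0 CPM in control. Of the 2 with enough reads Pdgfra, a growth factor receptor gene, was lower in pEx5 than in mEx5 control (0.293-fold, limma adjusted p = 4.28e-07) and was 1.74-fold higher on knockdown (limma adjusted p = 3.47e-05). S100a4, the other, was not called between the control groups (0.911-fold, limma adjusted p = 0.473). On knockdown S100a4 was 1.18-fold higher (limma adjusted p = 0.0292). It made up most of the control sums, averaging 13.7 CPM in pEx5 control and 15 CPM in mEx5 control. On knockdown the authors' deposited table called 3 of 7 mesenchymal markers higher in each line, Dcn, Pdgfra and Pdgfrb. It called 0 lower, beside 10.1% and 13.7% of all its genes. Of 12 noradrenergic markers tested by junction reads, 1 was higher and 4 lower on knockdown, beside 27.0% and 24.8% of all genes. In pEx5 against mEx5 control 7 of the 12 were higher and 1 lower, with 13.8% of all genes called lower there. The part of the mesenchymal and noradrenergic markers in the results for Wwtr1, Cyr61 and Amotl2 was not tested.

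The promoters of the genes that rose are shown with the core TEAD motif CATTCC, searched on either strand as CATTCC or GGAATG, which do not overlap each other here. The windows are the 250 bases before an annotated start in RefSeq (GRCm38.p6), written along the gene with the motif in capitals. Wwtr1 has 2 annotated starts, both with the motif, and only the first listed is shown. The first motif base lies 136 bases before that start in Wwtr1 and 65 bases before the only listed start in Amotl2. For the other Wwtr1 start it lies 170 bases before.
Wwtr1 promoter, chr3:57575911-57576160, minus strand: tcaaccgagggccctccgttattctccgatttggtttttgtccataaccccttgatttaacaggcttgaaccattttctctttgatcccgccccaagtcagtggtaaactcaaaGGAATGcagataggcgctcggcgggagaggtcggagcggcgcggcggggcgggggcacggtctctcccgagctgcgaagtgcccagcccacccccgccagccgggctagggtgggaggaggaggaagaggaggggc
Amotl2 promoter, chr9:102717554-102717803, plus strand: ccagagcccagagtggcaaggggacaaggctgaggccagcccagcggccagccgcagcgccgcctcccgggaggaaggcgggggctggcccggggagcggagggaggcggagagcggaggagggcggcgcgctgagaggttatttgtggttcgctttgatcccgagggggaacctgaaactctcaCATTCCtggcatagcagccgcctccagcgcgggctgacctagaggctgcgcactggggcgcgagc

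Of the 7 genes of the group with a promoter entry, 6 held the motif, among them Cyr61, Ankrd1, Yap1 and Tead3, and Tead2 did not. The motif was in the same window of 14.4% of all 27025 genes with an entry. Cyr61 held it and did not pass the test on knockdown. The matches are a description, and no binding was measured.

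Beyond the 10 genes, part of a signature of 22 known YAP and TEAD targets was higher on knockdown. This list, like those below, was chosen with earlier results of these data known. Of its 10 genes with enough junction reads, 7 were higher and 0 lower over both lines, beside 27.0% and 24.8% of all genes, and the median log2 fold change was 0.33, beside 0.01 over all genes. Besides Amotl2 these were Arhgef17, a guanine nucleotide exchange factor gene (1.31-fold, limma adjusted p = 0.014), Dock5, an exchange factor gene for Rac (1.3-fold, limma adjusted p = 0.000263), Crim1 and F3 (1.29-fold each), Gadd45a (1.22-fold) and Asap1 (1.07-fold). Without Amotl2 and Cyr61, 6 of 8 were higher with the same median of 0.33. The count of 7 fell to 4 without pEx5 control A, to 3 without pEx5 knockdown B and to 3 without mEx5 control B. The call of Arhgef17 was lost without pEx5 control B (limma adjusted p = 0.109), pEx5 knockdown B (0.0718) or mEx5 control B (0.0543). Within single lines 2 of 10 were higher in pEx5, Crim1 and Dock5, beside 19.8% of all genes, and 3 of 10 in mEx5, Amotl2, Gadd45a and Dock5, beside 17.9%. In the mEx5 line the call of Dock5 (limma adjusted p = 0.0486) was lost in 9 alternatives (0.0547 to 0.379), which include leaving out any 1 control library of either line, either pEx5 knockdown library or mEx5 knockdown A.

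The authors' deposited table, which has no test over both lines, called signature genes in both directions. It tested 16 of the 22 genes. It called 1 of them, Amotl2, higher in both single lines (10.1% of all its genes) and 2, Rbms3 and Tgfb2, lower in both (13.7%). Within the pEx5 line it called 3 higher and 2 lower (15.2% and 17.5% of all its genes), and within the mEx5 line 5 higher and 3 lower (14.0% and 16.8%). By junction reads Tgfb2 had a log2 fold change of -0.22 ± 0.105 SE on knockdown (limma adjusted p = 0.0899) and Rbms3 one of 0.07 ± 0.0779 SE (limma adjusted p = 0.463). For induction against knockdown 1 of the 10 genes was called by junction reads, Rbms3 (1.23-fold higher, limma adjusted p = 0.00574), beside 37.7% of all genes called in either direction. For induction against control 6 of 10 were higher, beside 19.0% of all genes.

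Upstream in the pathway, genes of the Hippo kinase list were called in both directions, as were all genes. Of 32 genes 26 were tested, 9 were higher and 4 lower on knockdown, beside 27.0% and 24.8% of all genes, and the median log2 fold change was 0.04, beside 0.01 over all genes. Higher genes included those of the kinases MST2 (Stk3, 1.24-fold) and MST1 (Stk4, 1.15-fold) and of the LATS co-factor MOB1 (Mobkl1a, 1.28-fold, limma adjusted p = 5.08e-05, and Mobkl1b, 1.2-fold). Lower genes were Taok2, a kinase that activates MST (0.698-fold, limma adjusted p = 5.78e-09), Dchs1, an atypical cadherin (0.806-fold), Wwc1, the scaffold KIBRA (0.844-fold), and Strn3 (0.94-fold). Lats1 was not called (1.04-fold, limma adjusted p = 0.306), nor was Nf2 (0.99-fold, limma adjusted p = 0.788). For induction against knockdown 3 were higher and 9 lower (19.0% and 18.7% of all genes), with Taok2 1.23-fold higher (limma adjusted p = 1.84e-05) and Mobkl1a 0.856-fold (limma adjusted p = 0.00569). On knockdown the authors' deposited table called 4 of 31 higher and 3 lower in each line, beside 10.1% and 13.7% of all its genes. Of the 4 VGLL cofactors, which compete with YAP for TEAD, only Vgll4 had enough reads, at a log2 fold change of -0.02 (limma adjusted p = 0.867).

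Part of a list of SRF, its MRTF co-activators and their targets, which share part of the YAP readout, was also higher on knockdown. Of 16 genes 11 were tested, and 7 were higher and 0 lower, beside 27.0% and 24.8% of all genes, with a median log2 fold change of 0.24, beside 0.01 over all genes. The 7 were the targets Myl9, Acta2, Cnn2, Flna, Tpm1 and Vcl and 1 of the factors, Mkl1, which encodes MRTF-A (1.18-fold, limma adjusted p = 0.0105). Srf itself (limma adjusted p = 0.126), Mkl2, which encodes MRTF-B (0.764), Tpm2 (0.618) and Actb (0.114) did not pass. Myl9, a myosin light chain gene, rose 6.1-fold (limma adjusted p = 5.45e-14), Acta2, smooth muscle actin, 3.12-fold (limma adjusted p = 5.96e-07) and Cnn2, a calponin gene, 1.49-fold (limma adjusted p = 2.07e-10). Acta2 had only 5 to 11 reads per library in pEx5 control. Before knockdown 5 of the 11 genes were lower in pEx5 than in mEx5 control and 0 higher, beside 13.8% of all genes lower. Among the lower ones were Acta2 (0.0275-fold, limma adjusted p = 3.36e-11) and Myl9 (0.152-fold, limma adjusted p = 1.31e-11). Myl9 averaged 11.1 CPM in pEx5 induction, 15.0 CPM in pEx5 knockdown and 1.76 CPM in pEx5 control, and 36.6, 53.3 and 11.8 CPM in mEx5 induction, mEx5 knockdown and mEx5 control. For induction against knockdown 0 were higher and 7 lower, among them Myl9 (0.715-fold, limma adjusted p = 0.000403), beside 19.0% and 18.7% of all genes. For induction against control 5 were higher, beside 19.0% of all genes. The authors' deposited table called 6 of 14 higher in each line and 0 lower, beside 10.1% and 13.7% of all its genes. The lists hold genes chosen for their roles, but with earlier results of these data known. They are described by counts, without a test of the list, and the counts are no independent support.

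**Figure D4:**
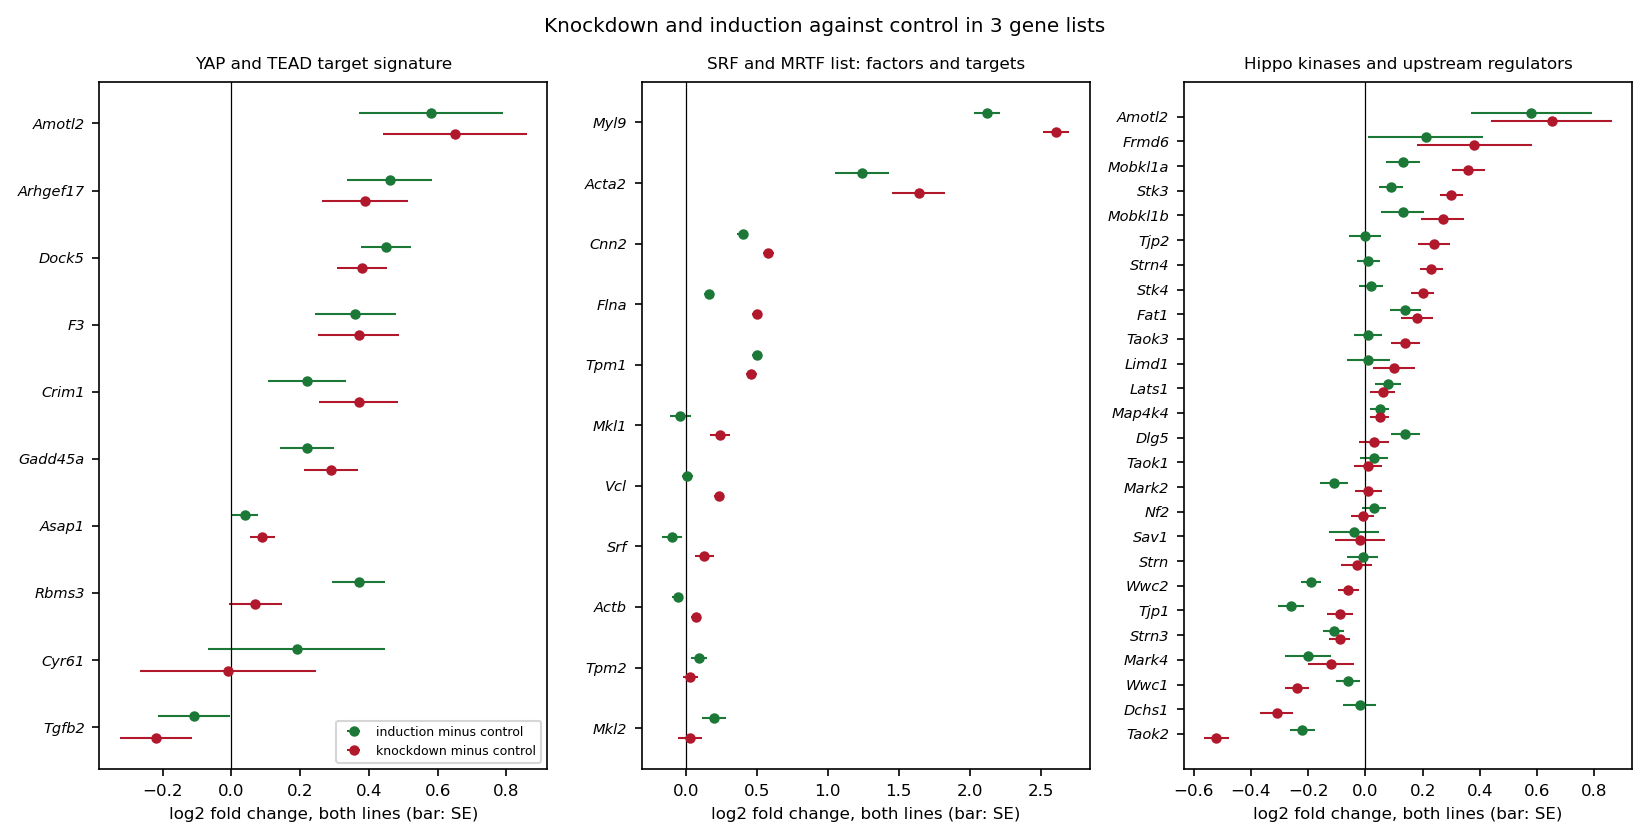
Log2 fold changes by junction reads over both lines (points) with standard errors (bars) for induction against control and knockdown against control, which share the control libraries, in the tested genes of 3 lists. Amotl2 leads the YAP and TEAD signature at 0.65 on knockdown, Myl9 the SRF and MRTF list at 2.61, and the Hippo list runs from Taok2 at -0.52 to Amotl2.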

How the data were processed

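Polyadenylated RNA of 12 libraries had been sequenced from stranded, size-selected libraries. The deposited splicing table gave PSI in percent per event and library, deposited by the authors in the layout of vast-tools, per the file headers. Its quality text held the reads of each event, and the percentage given by those reads matched 98.89% of the PSI values to within 0.02 points. A deposited table held a group PSI score per event and the authors' calls. The deposited expression table gave the authors' RPKM per gene and group, and their log2 fold changes, p-values and FDR. Per the submitters' processing notes, Salmon 0.14.1, edgeR and mm10 were used. Some doxycycline sample descriptions read as uninduced; the treatment field was used.

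Exon-exon junction reads were summed per gene over its introns and tested with limma 3.58.1 in R 4.3.3, with trend, on log2 CPM scaled by the median of ratios, with a prior count of 2, for 10363 genes averaging at least 20 reads. All 12 libraries entered a single fit with 1 coefficient per group. P-values were Benjamini-Hochberg adjusted over all genes and called under 0.05. Junction totals can themselves move when splicing changes. Events with at least 10 reads in each library were tested on the logit of inclusion reads (pseudocount 0.5), and an event was called where the adjusted p was below 0.05 and PSI moved by 10 points or more. An alternative weighted test used a variance floor of 0.01 and mean PSI of 5 to 95. The expression table held no values per library, so no test was run on it. On simulated data with known changes, the gene fit recovered most but missed most of the smallest changes within a single line. The event test recovered none of the changed events, so an event that was not called may still have changed, and the weighted test recovered mainly the large changes.

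The members and gene lists were chosen with earlier results of these data known. All 10 members were named. In each pathway list the 3 called genes with the largest change on knockdown were named by rule, and others were added after their values were seen. Alternatives covered scaling, prior count, filters, weights, pseudocount and leaving out each library. Replicate letters were not used as pairs in the main fits, and whether they mark pairs is not settled by the labels.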

Additional observations from a re-analysis of the deposited data

How the results depend on the processing

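Over the 18 alternatives run on the gene tests, Wwtr1 kept its call and direction on knockdown (log2 fold change 1.02 to 1.14), on induction against control (0.86 to 0.98) and between the control lines (-1.81 to -1.69). Amotl2 kept its direction on knockdown and lost its call when any 1 of 4 libraries was left out. Leaving out each library in turn gave 1 to 2 members higher on knockdown, 1 to 2 higher on induction than in control, 2 lower in pEx5 than in mEx5 control, and 3 to 7 signature genes higher on knockdown. The counts over all genes ranged from 4726 to 5566 for knockdown in both lines (5373 with all libraries), 2928 to 4246 in the pEx5 line (4060), 2612 to 3928 in the mEx5 line (3714), 3079 to 3919 for induction against knockdown (3907), 3168 to 4086 for induction against control (3930), 1699 to 2991 between control lines (2805) and 1 to 3 for the difference of knockdown effects (3). Events called ranged from 1380 to 2108 on knockdown (2234) and from 209 to 586 on induction against knockdown (745). With a pseudocount of 2 reads these were 3466 and 1857, and with the weighted test, which covered only events of intermediate PSI, 4003 and 2648. The replicate letter as a block gave 476 events on induction against knockdown and changed no call of a member. Deviations of libraries with the same letter correlated at -0.129 to 0.162 over 15 pairs of groups, with 2 above 0.1, so the letters were not taken as pairs. For the moved counts the cause was not tested. With the preceding intron as denominator, the difference of the Tead1 intron was 5.3 points on knockdown and -4.1 points on induction against knockdown. Depth limits Yap1, Ctgf, Tead2, Tead4 and Ankrd1, which had too few reads for a test, and the Tead1 intron, whose PSI rested on 11 to 53.1 reads.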
